A study of Homo sapiens with 11 samples.

Results

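The genes described here are SIK1, the gene of a salt-inducible kinase, and 9 genes grouped here as immediate early genes. Of the 9, FOS, FOSB and FOSL2 belong to the FOS family and JUN, JUNB and JUND to the JUN family. The others are the zinc finger factor gene EGR1, IER2 and IER3. These 10 genes were taken by symbol from the 58735 rows of each count table, with symbols assigned through GENCODE 29. SIK1 was selected on its uneven rise over the AsPC-1 siRNA libraries, so its values in AsPC-1 are a description and no test is attached to them. The libraries came from 2 human lines of pancreatic cancer cells, either transfected with small interfering RNA (siRNA) against MYEOV or used as controls, and mRNA was measured by poly(A) RNA sequencing. AsPC-1, a line grown from ascites of a pancreatic adenocarcinoma, was cultured in RPMI medium and had 2 control and 3 siRNA libraries. PANC-1, from a pancreatic ductal carcinoma, was cultured in DMEM and had 3 libraries of each kind, so line and medium cannot be told apart.

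All siRNA libraries were made from RNA taken 48 hours after transfection by lipofectamine. The control titles read as wild type and their descriptions as without treatment, while the protocol also lists a negative control siRNA, so whether the controls were transfected is not settled by the labels. A pair of MYEOV siRNAs is named, and the labels do not say which library received which. The series title speaks of knocking out MYEOV, but the sample labels give siRNA only. The labels name no separate cultures, so the p-values below measure the spread between libraries, which may be technical.

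Typical immediate early genes are transcribed within minutes of a stimulus without new protein synthesis, and their mRNAs are mostly short-lived. Whether each gene grouped here behaves in this way was not tested. FOS and JUN proteins pair as the dimeric transcription factor AP-1, whose properties depend on which members pair, and EGR1 is a separate zinc finger activator induced through serum response factor (SRF) and its ETS-type partners at CArG boxes. SIK1 is itself induced through CREB at cAMP response elements and, as a kinase, holds the CREB coactivators CRTC1, CRTC2 and CRTC3 in the cytoplasm. In pancreatic cancer cells these genes are read as outputs of growth factor and RAS signalling.

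The sequences upstream of 4 of the genes are shown because they carry the response elements just named. They are RefSeq sequences (GRCh38.p14), matched by symbol for 9 of the 10 genes (all but IER3). Each begins 250 bases before the RefSeq start and stops at the RefSeq or the GENCODE 29 start, whichever comes first. SIK1 was the gene selected, FOS differed most between the lines, EGR1 was called in both lines, and JUND alone holds the full element TGACGTCA. Capitals mark the cAMP response element core (TGACGT on either strand, which a full TGACGTCA holds on both strands) and, in EGR1, the CArG boxes.
SIK1 (chr21:43427190-43427381, minus strand): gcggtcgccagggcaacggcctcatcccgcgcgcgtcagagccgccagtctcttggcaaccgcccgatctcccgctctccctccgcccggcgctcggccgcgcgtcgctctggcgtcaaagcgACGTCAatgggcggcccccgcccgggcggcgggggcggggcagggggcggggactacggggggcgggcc
FOS (chr14:75278578-75278773, plus strand): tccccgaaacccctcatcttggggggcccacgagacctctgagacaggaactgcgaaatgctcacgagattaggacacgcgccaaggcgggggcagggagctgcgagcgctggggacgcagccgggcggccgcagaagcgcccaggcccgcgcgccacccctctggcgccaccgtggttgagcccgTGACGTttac
EGR1 (chr5:138465229-138465478, plus strand): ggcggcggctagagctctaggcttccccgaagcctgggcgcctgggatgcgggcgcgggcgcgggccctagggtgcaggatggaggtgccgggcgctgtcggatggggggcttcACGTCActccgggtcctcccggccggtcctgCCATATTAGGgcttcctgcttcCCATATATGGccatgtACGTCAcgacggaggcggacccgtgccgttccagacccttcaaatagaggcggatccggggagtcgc
JUND (chr19:18281623-18281872, minus strand): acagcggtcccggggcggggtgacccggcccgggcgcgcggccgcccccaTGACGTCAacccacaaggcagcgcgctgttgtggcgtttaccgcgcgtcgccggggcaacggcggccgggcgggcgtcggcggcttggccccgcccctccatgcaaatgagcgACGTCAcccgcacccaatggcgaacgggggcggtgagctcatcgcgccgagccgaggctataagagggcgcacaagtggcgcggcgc

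Over the 250 bases before the RefSeq start, the core TGACGT was found in 6 of the 9 genes with an entry (SIK1, FOS, FOSB, FOSL2, JUND and EGR1), against 7.10% of 35116 promoters of the same length. In SIK1 the core lay 127 to 122 bases before the start, in FOS 64 to 59 and in FOSB 60 to 55. The full element TGACGTCA was in JUND alone, against 1.65% of all promoters, and the related TGACATCA, known from the JUN promoter, was in JUN alone, 67 to 60 bases before the start, against 2.38%. Within these 250 bases, EGR1 was the only one of the 9 with a CArG box. It had 2 copies, CCATATTAGG and CCATATATGG, against 1.16% of promoters with at least 1. Elements farther from the start, in FOS or any other gene, were not searched. The AP-1 element (TGACTCA or TGAGTCA) was in none of the 9 windows, against 4.20% of all promoters. The starts used by RefSeq and GENCODE differ for several of these genes, so these windows are not the same relative to both annotations. In GENCODE 29 (GRCh38) the genes lie at chr14:75278774-75282230 (FOS), chr19:45467995-45475179 (FOSB), chr2:28392448-28417312 (FOSL2), chr1:58780788-58784327 (JUN), chr19:12791496-12793315 (JUNB), chr19:18279760-18281622 (JUND), chr5:138465490-138469315 (EGR1), chr19:13150415-13154908 (IER2) and chr6:30743199-30744554 (IER3). All searches covered both strands, and a match is a description of letters only.

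The data comprised 12113093 to 15066456 counts on genes per library and 22050 to 24025 genes with a count. MYEOV, the targeted gene, had 35.9% of its control level in AsPC-1 siRNA libraries and 54.4% in PANC-1. All 6 epithelial markers listed were at 1 CPM (counts scaled to the library total) or more in each group mean, with summed levels of 18078 to 18967 CPM in AsPC-1 libraries and 1931 to 2534 CPM in PANC-1. Of 6 leukocyte markers, PTPRC, CD3E and MS4A1 had 0 counts in every AsPC-1 library, while the list summed to 30.5 to 32.9 CPM there, with LYZ at 29.5 and CD14 at 2.43 CPM in the controls. In PANC-1 CD3E, LYZ and MS4A1 had 0 counts in every library and the list summed to 0.859 to 1.58 CPM. The 4 endothelial markers summed to 0.253 to 0.913 CPM over all libraries. Of 7 fibroblast markers, LUM took nearly all of the sum in AsPC-1, which was 296.4 to 310.2 CPM in controls and 105.8 to 109.3 CPM in siRNA libraries, while PDGFRA had 0 counts there. Whether that fall bears on any gene below was not tested. In bulk RNA, fewer cells with a transcript and less of it per cell cannot be told apart.

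SIK1 had low counts. The AsPC-1 controls had 37 and 46 counts and the siRNA libraries 76, 155 and 267, while PANC-1 had 92, 73 and 53 in controls and 78, 48 and 53 in siRNA libraries. After scaling to library size with TMM factors, as for all CPM levels here, these were 2.81 and 4.08 CPM in AsPC-1 controls and 6.36, 12.7 and 22.1 CPM in AsPC-1 siRNA libraries. All 3 siRNA libraries lay above both controls, and the third siRNA library was 3.47 times the first. The fitted ratio of siRNA to control was 4.0 (log2 fold change 2.00), given without a test, and without the third siRNA library it was 1.48 on the log2 scale. In PANC-1, SIK1 was at 6.00, 5.36 and 3.35 CPM in controls and 4.78, 3.45 and 4.04 CPM in siRNA libraries. These groups overlapped, and the log2 fold change was -0.24 (SE 0.21, adjusted p = 0.538, edgeR quasi-likelihood test with Benjamini-Hochberg adjustment over all genes tested).

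**Figure D1:**
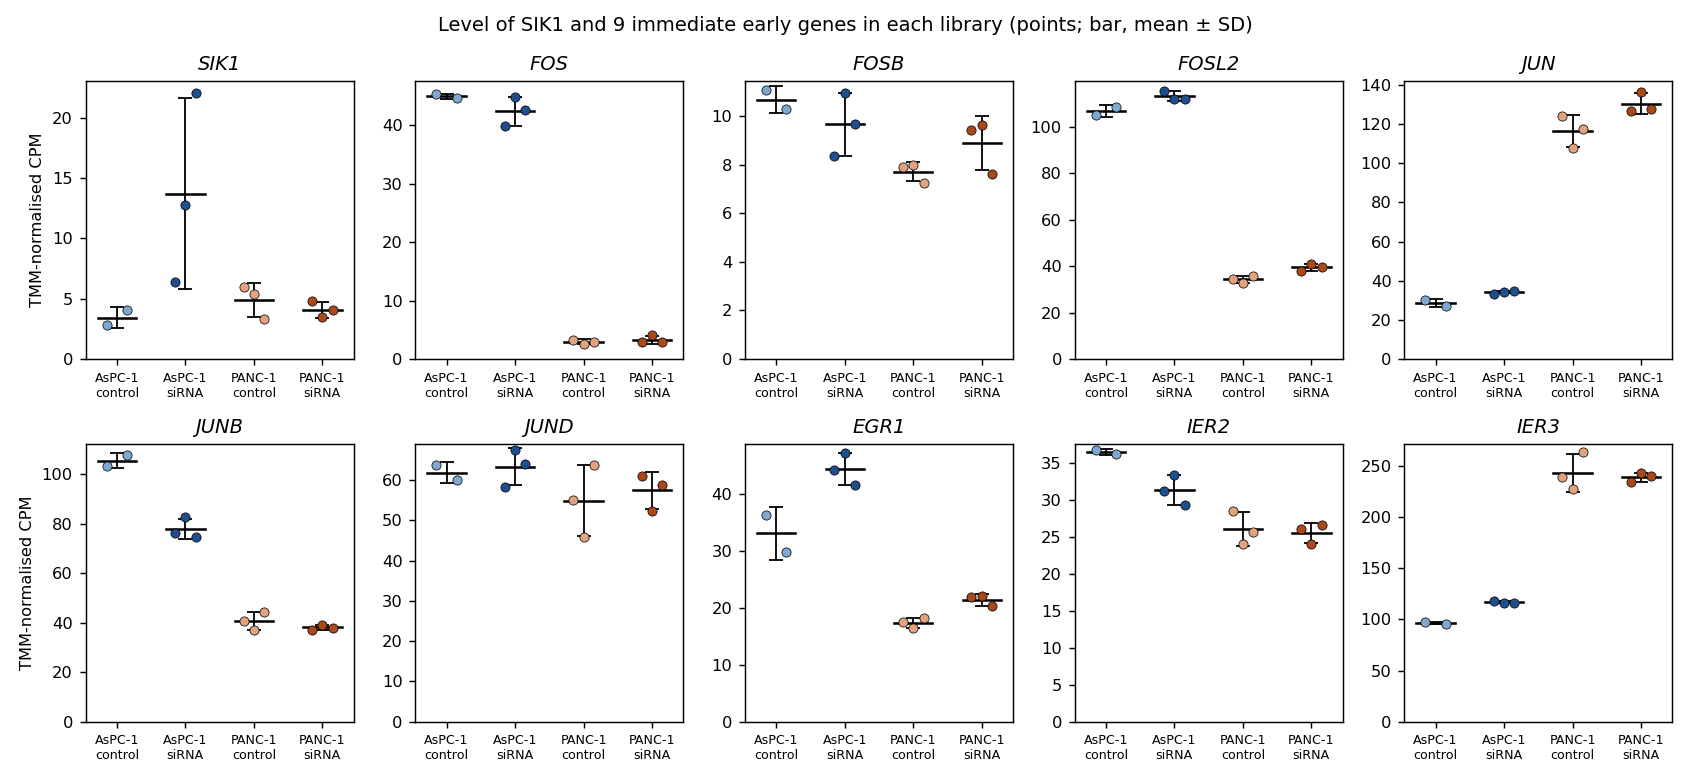
Level of each gene in every library, in TMM-normalised CPM on a linear axis from 0, with the group mean and its SD (n = 2 for AsPC-1 controls, n = 3 elsewhere). SIK1 spreads from 6.36 to 22.1 CPM over the AsPC-1 siRNA libraries, FOS is near 45 CPM in AsPC-1 controls and near 3 in PANC-1, and JUN and IER3 are higher in PANC-1.

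The annotation holds a near-identical copy of SIK1, named SIK1B, elsewhere on chromosome 21, and its row changes what the SIK1 row shows. SIK1 (ENSG00000142178) lies at chr21:43414483-43427189 on the minus strand and SIK1B (ENSG00000275993) at chr21:6111134-6123739 on the plus strand, both in GRCh38. The longest coding transcripts, 4805 bases for SIK1 and 4705 bases for SIK1B, aligned over 4705 bases with 7 substitutions (99.9% identity). Counted from 1 at the 5′ end of the SIK1 transcript, with the SIK1 base first, they were C2038T and C2042T in the coding part (bases 195 to 2546) and G2955A, T3660C, C3867T, C4343T and C4361T in the 3′ UTR. The 2 coding differences sit 4 bases apart, and the stretch around them (bases 2013 to 2067) is shown because it is where coding reads can be told apart, with the differing bases in capitals.
SIK1: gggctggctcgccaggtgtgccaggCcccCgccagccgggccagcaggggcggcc
SIK1B: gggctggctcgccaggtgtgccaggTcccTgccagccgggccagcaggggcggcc

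Of all 4656 stretches of 150 bases in the SIK1 transcript, the read length, 3784 (81.3%) occur unchanged in that of SIK1B, so a single read of that kind has no base that assigns it. No source used here says how reads that match both copies were handled. SIK1B had 245 and 218 counts in AsPC-1 controls and 376, 319 and 300 in the siRNA libraries. In PANC-1 it had only 5, 0 and 10 counts in controls and 3, 8 and 9 in siRNA libraries. SIK1 thus took 13.1% (95% Wilson interval 9.67 to 17.6) and 17.4% (13.3 to 22.5) of the counts of the pair in AsPC-1 controls. It took 16.8% (13.6 to 20.5), 32.7% (28.6 to 37.0) and 47.1% (43.0 to 51.2) in the 3 AsPC-1 siRNA libraries. SIK1 was selected on its uneven rise over these 3 siRNA libraries, so their shares are a description and not a test. In PANC-1 the share ran from 84.1% to 100%. These intervals cover counting error only.

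Summed over both copies, AsPC-1 controls had 282 and 264 counts and the siRNA libraries 452, 474 and 567. The summed level was 22.4 ± 1.41 CPM in controls (SD, n = 2) and 41.2 ± 4.94 CPM in siRNA libraries (SD, n = 3), and the highest siRNA library was 1.24 times the lowest. The fitted ratio was 1.83 (log2 fold change 0.87), without a test, against 4.0 for the SIK1 row alone. In PANC-1 the sum was 5.22 ± 1.18 CPM in controls and 4.57 ± 0.487 CPM in siRNA libraries (SD, n = 3 each), a log2 fold change of -0.18 (with SE 0.18, edgeR adjusted p = 0.596). Between the controls of the lines, SIK1 alone was 1.41 times as high in PANC-1, while the sum was at 22.9% of its AsPC-1 level. The direction of SIK1 between the lines therefore flips with the summing, which was chosen after the values were seen. The reads of the 2 copies can be separated only where they differ, and the part this has in the spread of SIK1 was not tested. Whether the 2 rows stand for 2 separate genes in these cells was not tested either.

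**Figure D2:**
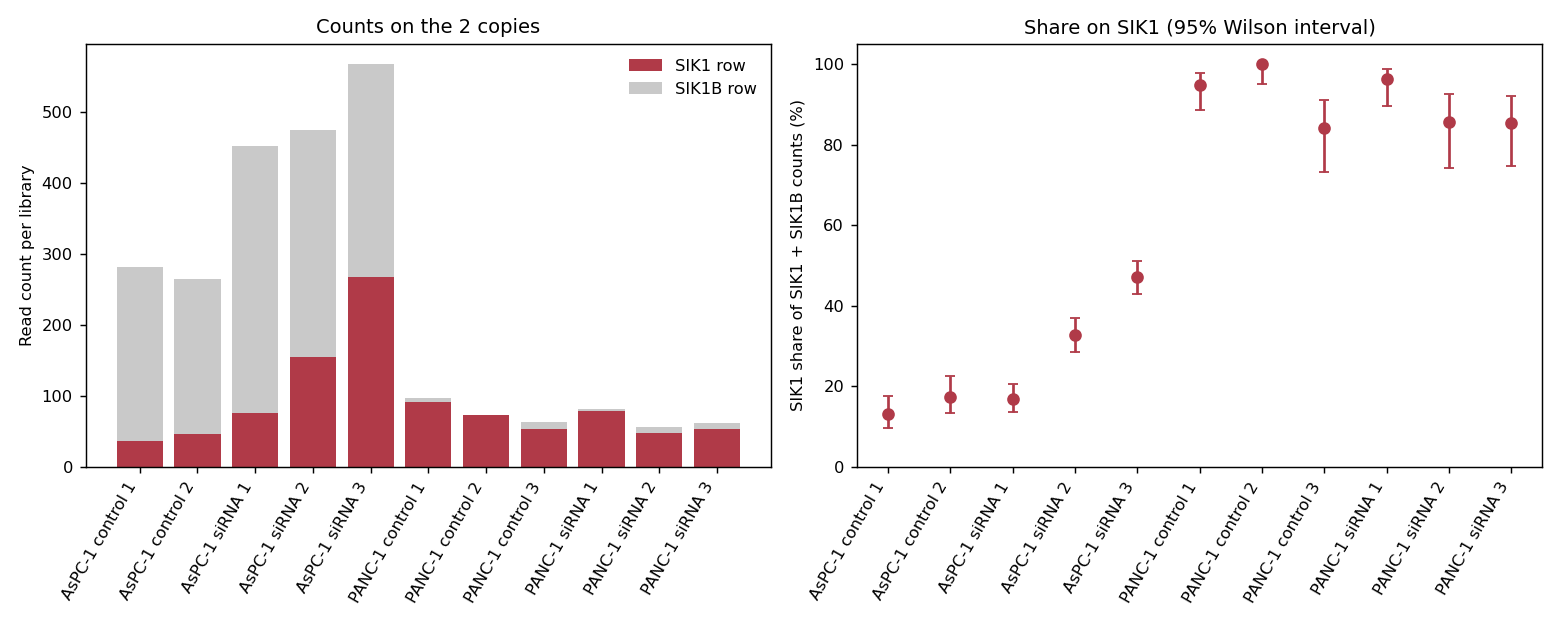
Read counts on the SIK1 and SIK1B rows in each library, stacked (left, linear axis), and the share of the pair on SIK1 in percent with its 95% Wilson interval (right). In AsPC-1 the share is 13.1% to 17.4% in controls and 16.8% to 47.1% in siRNA libraries, and the stacked bars differ between the siRNA libraries far less than the SIK1 part does.

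The spread of SIK1 over the AsPC-1 siRNA libraries is what selected it, so its place among other genes is a description only. Among 11491 genes with a mean of at least 3 CPM in that group, 4 had a ratio of highest to lowest library as large as 3.47, SIK1 included, and the median was 1.09. The 9 immediate early genes had ratios of 1.02 (IER3) to 1.31 (FOSB) there, all below the 95th percentile of 1.38. In the PANC-1 siRNA libraries the ratio was 1.38 for SIK1 and 1.42 for FOS, against a 95th percentile of 1.401, and FOS there had 39 to 57 counts per library. The sum of SIK1 and SIK1B, at 1.24 in the AsPC-1 siRNA libraries, was below the 95th percentile there.

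**Figure D3:**
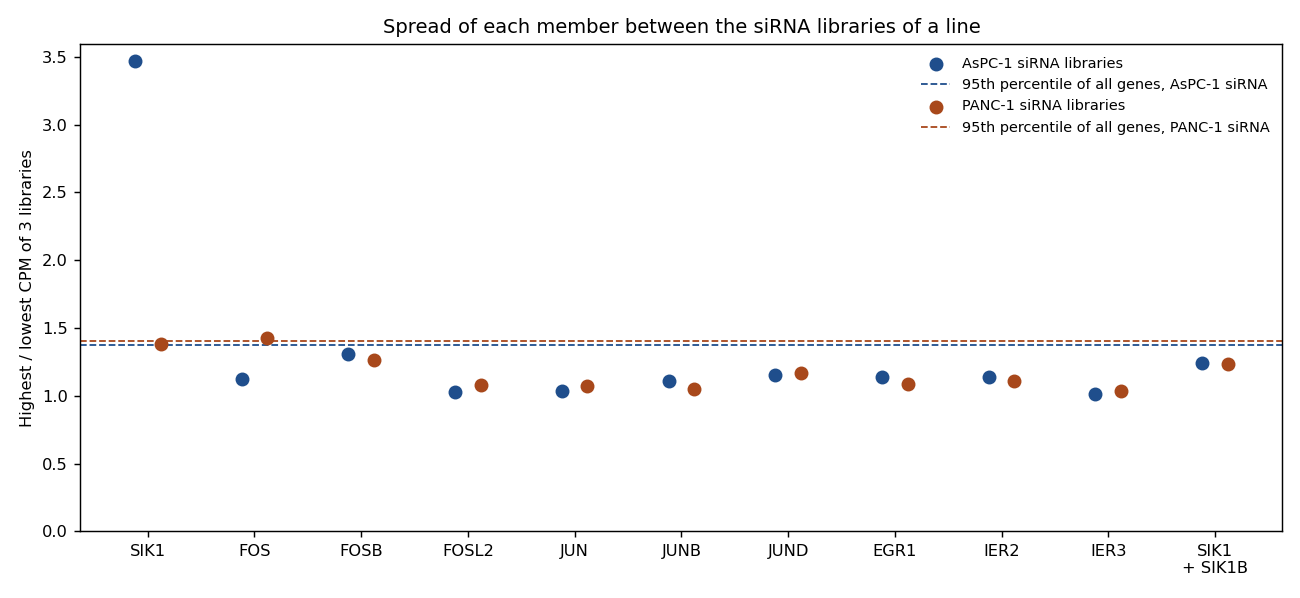
Ratio of the highest to the lowest of the 3 siRNA libraries of each line, per gene and for the sum of SIK1 and SIK1B, with dashed lines at the 95th percentile over all genes with a mean of at least 3 CPM. SIK1 stands at 3.47 in AsPC-1, and the sum of the 2 copies at 1.24.

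The genes whose deviations from their group means were most like those of SIK1 over all 11 libraries were DYNLL2, TSPYL1, TAF15, BPGM and PSMC6, among 11302 genes with a mean of at least 5 CPM. Pearson's r was 0.96 for DYNLL2 (Spearman's rho 0.95) and 0.92 for PSMC6 (rho 0.81), and without the first and the third AsPC-1 siRNA libraries, which lay farthest from the median, r was 0.87 and 0.74. These values are descriptions, and all points share their libraries and scaling. The changes themselves were small: DYNLL2 had 24.4, 27.0 and 29.8 CPM in the AsPC-1 siRNA libraries while SIK1 had 6.36, 12.7 and 22.1 CPM. Among the immediate early genes, r with SIK1 ran from -0.49 for IER3 to 0.39 for FOSB, and it was 0.01 for FOS. SIK1B had r = -0.49.

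In AsPC-1, EGR1, IER3 and JUN rose with siRNA against MYEOV and JUNB and IER2 fell, while FOS, FOSB, FOSL2 and JUND did not pass the test. Each of these changes was below 1.4-fold. Of the 9 genes tested, 5 were called at an adjusted p under 0.05, against 32.9% of all 14304 genes tested: 3 were higher, against 16.6%, and 2 lower, against 16.3%. The median log2 fold change of the 9 was 0.02, against 0.00 for all genes. The libraries of the groups did not overlap for 6 of the 9, against 54.2% of all genes. All 10 genes passed the filter on low counts in every comparison.

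EGR1 had 36.3 and 29.8 CPM in AsPC-1 controls and 44.2, 47.2 and 41.5 CPM in siRNA libraries. All 3 siRNA libraries were above both controls, and the log2 fold change was 0.40 (SE 0.08, edgeR adjusted p = 2.58e-04), a ratio of 1.32. IER3, a stress-induced regulator of cell survival, had 97.4 and 95.8 CPM in controls and 117.6, 116.2 and 115.8 CPM in siRNA libraries. Its groups were tight and separate, with a ratio of 1.19 (log2 fold change 0.26 with SE 0.04, edgeR adjusted p = 6.65e-05). JUN had 30.1 and 27.3 CPM in controls and 33.4, 34.4 and 34.6 CPM in siRNA libraries, a ratio of 1.18 (log2 fold change 0.23 with SE 0.07, edgeR adjusted p = 0.0172). That call was lost without the second AsPC-1 control, where the edgeR adjusted p was 0.177, and with DESeq2, where it was 0.0989.

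JUNB, an AP-1 subunit that is a weaker activator than JUN, had 103.2 and 107.7 CPM in AsPC-1 controls and 76.4, 82.5 and 74.5 CPM in siRNA libraries. Every siRNA library was below both controls, at 73.1% of the control level (log2 fold change -0.45 with SE 0.05, edgeR adjusted p = 1.47e-07). IER2, a nuclear protein of the same early response, had 36.9 and 36.2 CPM in controls and 31.3, 33.5 and 29.4 CPM in siRNA libraries, 84.9% of control (log2 fold change -0.24 with SE 0.07, edgeR adjusted p = 0.0148). Without 1 of 3 libraries the call for IER2 was lost: the adjusted p was 0.101 without the first control, 0.0747 without the second control and 0.0706 without the third siRNA library. It was also lost with DESeq2 (adjusted p = 0.0970) and in 1 edgeR fit over all groups (0.0744). EGR1, IER3 and JUNB kept an adjusted p under 0.05 in each of the 5 fits that left out a library.

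The 4 genes not called in AsPC-1 lay close to their controls. FOS had 45.2 and 44.6 CPM in controls and 39.8, 44.7 and 42.5 CPM in siRNA libraries (log2 fold change -0.10 with SE 0.07, edgeR adjusted p = 0.272). FOSB had log2 fold change -0.16 (with SE 0.13) and JUND 0.02 (SE 0.06), with overlapping libraries in both. FOSL2 had 105.1 and 108.6 CPM in controls and 115.7, 112.1 and 112.2 CPM in siRNA libraries: the groups did not overlap, yet the log2 fold change of 0.07 (with SE 0.04, edgeR adjusted p = 0.249) did not pass.

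Exons of JUNB share 14.2% of their 1820 bases with HOOK2 on the opposite strand. The strand setting is not given, so whether reads in such shared stretches were counted, and for which gene, is not known. HOOK2 itself had a log2 fold change of 0.18 in AsPC-1 (edgeR adjusted p = 0.0502), opposite in sign to JUNB. IER2 shares 30.8% of its exon bases with AC011446.2, which had 0 counts in every library, and IER3 shares 26.5% with IER3-AS1, at most 0.130 CPM in any library.

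In PANC-1, EGR1 rose, and it alone of the 10 genes was called, against 9.08% of all 14929 genes tested. It was called higher, against 4.16% of all genes, and none was called lower, against 4.92%. The median log2 fold change of the 10 was 0.11, against 0.00 for all genes. The groups did not overlap for 3 of the 10 (EGR1, JUN and FOSL2), against 28.4% of all genes. At an unadjusted p under 0.05 there were 3 of the 10, against 3509 of all 14929 genes.

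EGR1 in PANC-1 had 17.5, 16.4 and 18.2 CPM in controls and 21.8, 22.0 and 20.2 CPM in siRNA libraries. All siRNA libraries were above all controls, with a ratio of 1.23 (log2 fold change 0.30 with SE 0.09, edgeR adjusted p = 0.0428). The call was close to the threshold and was lost without any 1 of the 6 libraries, where the adjusted p ran from 0.0612 to 0.171, with DESeq2, where it was 0.0903, and with no filter on low counts, where it was 0.0586. FOSL2 had 34.4, 32.6 and 35.9 CPM in controls and 38.1, 41.1 and 39.6 CPM in siRNA libraries (log2 fold change 0.20 with SE 0.07, edgeR adjusted p = 0.0843), and passed only in 1 fit over all groups among the alternatives run (0.0281). JUN had 124.2, 107.9 and 117.3 CPM in controls and 127.0, 136.5 and 127.7 CPM in siRNA libraries (log2 fold change 0.16 with SE 0.06, edgeR adjusted p = 0.121). JUNB was at 93.1% of control with overlapping libraries (log2 fold change -0.10 with SE 0.08), and IER3 at 98.3% (log2 fold change -0.03 with SE 0.06). FOS, FOSB, JUND and IER2 had log2 fold changes between -0.03 and 0.21 and overlapping groups.

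**Figure D4:**
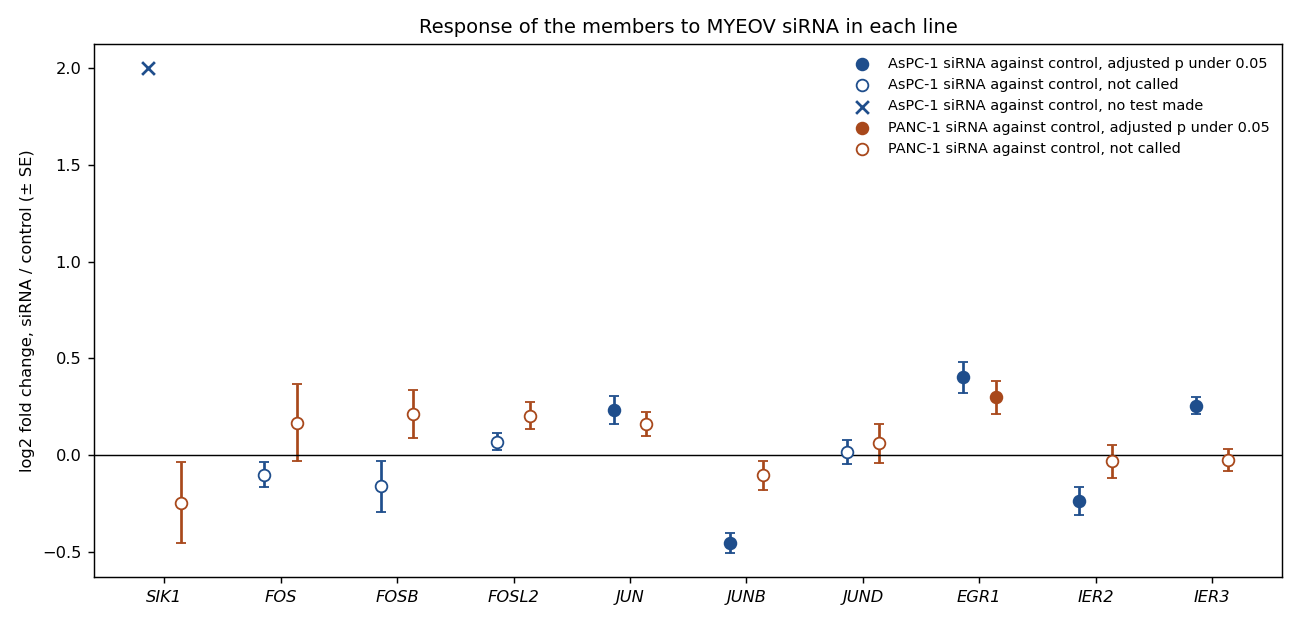
Log2 fold change of siRNA against control for each gene in AsPC-1 (blue) and PANC-1 (brown), with bars for 1 SE; filled points passed an adjusted p under 0.05, open points did not, and the cross for SIK1 in AsPC-1 has no test. EGR1 is above 0 in both lines, at 0.40 and 0.30, and JUNB is lowest in AsPC-1 at -0.45.

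The difference in response between the lines was tested in 1 fit over all 11 libraries. Of 9 genes tested, 1 was called, against 4.36% of all 16680 genes. That gene was IER3, whose response was lower in PANC-1 (log2 difference -0.30, SE 0.08, edgeR adjusted p = 0.0299). The IER3 call was lost in 8 of the 11 fits that left out a library: without either AsPC-1 control, any AsPC-1 siRNA library, the third PANC-1 control, or the first or second PANC-1 siRNA library. Over those 11 fits its adjusted p ran from 0.00406 to 0.141, and under upper-quartile scaling it was 0.0597. For JUNB the difference was 0.33 (SE 0.10, edgeR adjusted p = 0.0530), which did not pass, and leaving out the second AsPC-1 siRNA library or the second or the third PANC-1 control brought it under the threshold (0.0473, 0.0404 and 0.0206). It also passed under upper-quartile scaling (0.0446), without a filter (0.0388), with the filter of 5 CPM (0.0453) and with DESeq2 (0.0455). EGR1 and JUN had differences of -0.12 (SE 0.13) and -0.09 (SE 0.10), with adjusted p of 0.708 and 0.733 by edgeR. SIK1 differed by -2.25, and the sum of SIK1 and SIK1B by -1.06, both without a test.

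The controls of the lines were compared next. FOS, FOSL2, JUNB, EGR1, IER2 and FOSB were lower in PANC-1, and JUN and IER3 were higher. Of the 9 genes tested, 8 were called, against 76.4% of all 16182 genes tested, with 2 higher in PANC-1, against 40.3%, and 6 lower, against 36.1%. These calls share the control libraries with the siRNA comparisons. The median log2 difference of the 9 was -0.51, against 0.06 for all genes.

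FOS had 45.2 and 44.6 CPM in AsPC-1 controls and 3.32, 2.50 and 2.97 CPM in PANC-1 controls, 15.5-fold lower (log2 difference -3.95, SE 0.12, edgeR adjusted p = 1.82e-13). FOSL2 was at 31.6% of its AsPC-1 level (106.9 ± 2.48 against 34.3 ± 1.64 CPM; log2 difference -1.66, SE 0.07, edgeR adjusted p = 1.16e-11). JUNB was at 38.1% (105.5 ± 3.20 against 40.8 ± 3.66 CPM; log2 difference -1.39, SE 0.08, edgeR adjusted p = 3.16e-10). HOOK2, which overlaps JUNB, also differed, by -1.62, and its part in the JUNB value was not tested. EGR1 was at 51.6% (33.0 ± 4.601 against 17.3 ± 0.915 CPM), IER2 at 70.4% and FOSB at 70.9% of their AsPC-1 levels, with edgeR adjusted p of 7.70e-07, 1.56e-04 and 0.00344. Errors are SD, with n = 2 in AsPC-1 and n = 3 in PANC-1.

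JUN had 30.1 and 27.3 CPM in AsPC-1 controls and 124.2, 107.9 and 117.3 CPM in PANC-1 controls, 3.99-fold higher (log2 difference 2.00, SE 0.09, edgeR adjusted p = 1.04e-11). IER3 was 2.47-fold higher in PANC-1, at 96.6 ± 1.13 against 242.8 ± 18.5 CPM (SD, n = 2 and 3; log2 difference 1.31, SE 0.07, edgeR adjusted p = 1.89e-10). JUND alone was not called, at 61.8 ± 2.61 and 54.9 ± 8.92 CPM (SD, n = 2 and 3; log2 difference -0.19, SE 0.11, edgeR adjusted p = 0.114), and without the third PANC-1 control its adjusted p was 0.0117. All 8 calls held in each of the 5 fits that left out a library.

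Ordering the 4 groups by level separated the lines for most of these 10 genes. The share of all genes separated in this way was not computed, and 76.4% of all genes were called between the controls. FOS, FOSL2, JUNB, EGR1 and IER2 had both AsPC-1 groups above both PANC-1 groups, with no overlap between the lines, and JUN and IER3 had both PANC-1 groups above. For JUND and FOSB neighbouring groups overlapped throughout the order. For SIK1 the AsPC-1 siRNA group stood above the PANC-1 control group without overlap, and the other neighbours overlapped. For the sum of SIK1 and SIK1B the order was AsPC-1 siRNA, AsPC-1 control, PANC-1 control and PANC-1 siRNA, with overlap only between the PANC-1 groups.

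Divided by exon length, so that genes can be compared with each other, the makeup of the AP-1 mRNAs differed between the lines. FOSL1, a FOS family member that lacks a strong activation domain and is sustained in RAS-driven cells, was added to FOS, FOSB and FOSL2 for this. In AsPC-1 controls FOSL1 made up 55.2% ± 0.422 of the FOS family level per kb, FOSL2 21.8% ± 0.641, FOS 20.2% ± 0.0873 and FOSB 2.80% ± 0.132 (SD, n = 2). In PANC-1 controls FOSL1 made up 94.8% ± 0.325, FOSL2 3.50% ± 0.296, FOSB 1.01% ± 0.0409 and FOS 0.658% ± 0.0801 (SD, n = 3). The FOS family sum was 68.6 CPM per kb in AsPC-1 controls and 137.4 in PANC-1 controls. Of the JUN family, JUNB was 58.4% ± 1.89, JUND 33.4% ± 1.35 and JUN 8.16% ± 0.540 in AsPC-1 controls, while PANC-1 controls had JUN at 38.9% ± 2.44, JUND at 34.6% ± 2.40 and JUNB at 26.5% ± 0.645.

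With siRNA in AsPC-1, the share of FOSL1 was 65.1% ± 0.916, that of FOS 14.9% ± 0.768, that of JUNB 49.5% ± 1.303 and that of JUN 11.2% ± 0.457 (SD, n = 3). In PANC-1 siRNA libraries FOSL1 had 94.8% ± 0.314 and JUN 41.6% ± 1.86, both with libraries that overlapped the controls. JUNB had 23.6% ± 0.734 there, and its siRNA libraries (22.9% to 24.4%) were all below the PANC-1 controls (25.8% to 27.0%). Its share was thus lower with siRNA in both lines. A share also moves with the other genes of its family. In CPM, neither JUNB in PANC-1 nor FOS in AsPC-1 was called (edgeR adjusted p of 0.458 and 0.272). The AsPC-1 siRNA libraries did not overlap the AsPC-1 controls in the share of any gene of the FOS or JUN family, FOSL2, FOSB and JUND included. Shares within a family are bound to each other, so these are not separate results. In CPM, the AsPC-1 groups overlapped for FOS, FOSB and JUND, and 54.2% of all genes tested there did not overlap. FOSL1 itself rose 1.495-fold in AsPC-1 (71.4 ± 0.987 to 107.9 ± 4.70 CPM; log2 fold change 0.58 with SE 0.05, edgeR adjusted p = 1.63e-09). In PANC-1 it had a ratio of 1.14 (SE 0.06 on the log2 scale, edgeR adjusted p = 0.0879), and the difference between the lines was -0.41 (SE 0.09, edgeR adjusted p = 0.00977). A level per kb uses the length of all annotated exons, and transcripts that use fewer exons would be given too low a value.

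**Figure D5:**
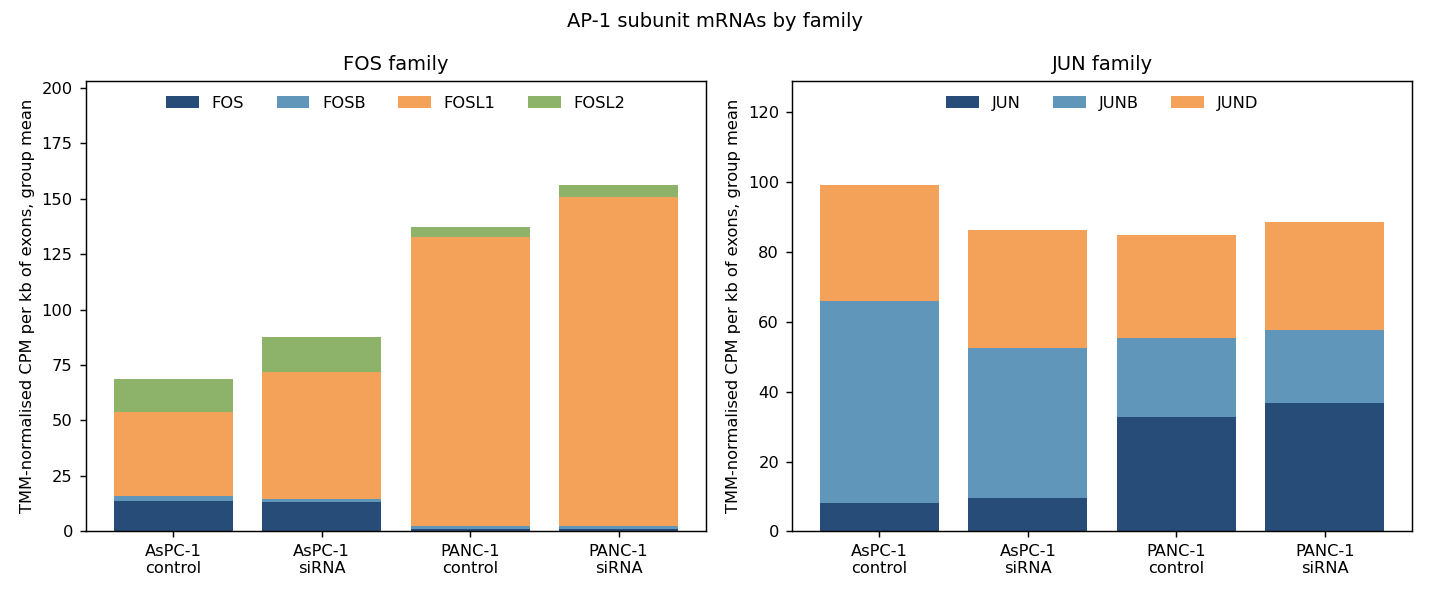
Group means of the FOS family (left) and JUN family (right) mRNAs, in TMM-normalised CPM per kb of annotated exons, stacked on linear axes from 0. FOSL1 fills 55.2% of the FOS family bar in AsPC-1 controls and 94.8% in PANC-1 controls, and the JUN part is 8.16% and 38.9% of the JUN family bar.

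The partners of these proteins were read from lists, each given by how many of its tested members were called. Over all genes, 16.6% rose and 16.3% fell in AsPC-1 and 4.16% rose and 4.92% fell in PANC-1, and these are the shares to set beside each count. The medians of the 11 lists of pathway genes ran from -0.06 to 0.25 on the log2 scale in AsPC-1 and from -0.05 to 0.19 in PANC-1, against 0.00 for all genes in each line. Of 11 AP-1 partner genes tested in AsPC-1, 3 rose and 1 fell. ATF2, which pairs with JUN, rose 1.33-fold (log2 fold change 0.41, edgeR adjusted p = 6.41e-06), and FOSL1 was among those that rose. In PANC-1, 1 of 10 rose, MAFG at 1.17-fold (edgeR adjusted p = 0.0264). Of 15 AP-1 target genes tested in AsPC-1, 10 rose and 2 fell, against 16.6% and 16.3% of all genes, with a median log2 fold change of 0.25. PLAU, the gene of urokinase, rose 3.91-fold from 25.6 ± 0.382 to 101.2 ± 5.64 CPM (SD, n = 2 and 3; edgeR adjusted p = 1.53e-17). In PANC-1, 4 of 14 rose and 1 fell, against 4.16% and 4.92%, with HMOX1 at 1.74-fold and KRT18 at 79.3% (edgeR adjusted p of 2.15e-06 and 7.56e-04). The response of PLAU was lower in PANC-1 (log2 difference -1.69, edgeR adjusted p = 1.63e-09).

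Upstream of EGR1 and FOS, 3 of 6 genes of SRF and its cofactors rose in AsPC-1 and none fell, against 16.6% and 16.3% of all genes. The ETS-type partners ELK4 and ELK3 rose 1.85-fold and 1.29-fold (edgeR adjusted p of 4.56e-12 and 1.68e-05), and SRF rose 1.19-fold (log2 fold change 0.25, edgeR adjusted p = 0.00625). In PANC-1, SRF was the 1 of 6 that rose, by 1.18-fold (log2 fold change 0.24, edgeR adjusted p = 0.0365). The response of ELK4 was lower in PANC-1 (log2 difference -0.76, edgeR adjusted p = 0.00124). Of the cytoskeletal genes that SRF also drives, 4 of 14 rose and 3 fell in AsPC-1, FLNA to 76.7% and ACTB to 87.6% among the latter. In PANC-1, 4 of 15 rose and 1 fell, against 4.16% and 4.92% of all genes, with MYL9 at 1.47-fold.

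The kinase cascade that leads to these genes was read from its transducers and phosphatases. Of 16 MAP kinase transducers, 2 rose and 5 fell in AsPC-1, against 16.6% and 16.3% of all genes, with BRAF at 82.2% and RPS6KA2 at 67.5% of control, and in PANC-1 MAP2K1 alone was called, at 78.5%. Of 10 MAP kinase phosphatases tested in AsPC-1, DUSP7 rose 1.46-fold, DUSP1 rose 1.36-fold, and DUSP6, a negative feedback gene of ERK, fell to 73.7% (edgeR adjusted p = 1.05e-08). None of 9 was called in PANC-1. Between the controls, 6 of 10 phosphatases were higher in PANC-1 and 4 lower, against 40.3% and 36.1% of all genes. DUSP6 was at 171.0 ± 3.25 CPM in AsPC-1 and 15.7 ± 1.70 CPM in PANC-1, and DUSP4 at 157.2 ± 0.529 and 0.506 ± 0.250 CPM (SD, n = 2 and 3), so both were lower in PANC-1 (edgeR adjusted p of 1.04e-14 and 2.50e-16). DUSP5 was 24.0-fold higher there (1.21 ± 0.330 against 30.1 ± 2.15 CPM, SD, n = 2 and 3; edgeR adjusted p = 3.18e-12).

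For the SIK1 pathway, 3 of 21 genes rose and 2 fell in AsPC-1, against 16.6% and 16.3% of all genes, and 1 fell in PANC-1, against 4.92%. These counts are near or below those shares. SIK2, a relative of SIK1, rose 1.16-fold in AsPC-1 (84.2 to 98.5 CPM; log2 fold change 0.21 with SE 0.05, edgeR adjusted p = 0.00182) and had 1.03 in PANC-1 (SE 0.06 on the log2 scale, edgeR adjusted p = 0.754). SIK3 had log2 fold changes of -0.03 (SE 0.06) and 0.02 (SE 0.06). Of the coactivators, CRTC3 rose 1.17-fold in AsPC-1 (log2 fold change 0.22 with SE 0.08, edgeR adjusted p = 0.0292) and had 0.23 in PANC-1 (SE 0.07, edgeR adjusted p = 0.0641). CRTC1 and CRTC2 were not called in either line. PRKAR1A, the regulatory subunit that holds protein kinase A inactive, fell in both lines, to 50.3% in AsPC-1 (140.8 ± 2.61 to 71.6 ± 3.11 CPM) and to 61.3% in PANC-1 (161.5 ± 25.4 to 99.0 ± 10.1 CPM; edgeR adjusted p of 2.02e-14 and 4.51e-04). Of 9 CREB target genes tested in AsPC-1, NR4A1 fell to 72.8% and NR4A2 to 77.8% while DUSP1 rose, and none of 9 was called in PANC-1.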

How the data were processed

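The authors deposited whole-number read counts per gene for 11 libraries, with no normalization. Per the submitters' processing notes, the tools were HISAT2 and HTSeq, without versions, and the build hg19. Strand setting and the handling of reads with several matches are not given in the sources used here. All 58735 identifiers occur in GENCODE 29, a GRCh38 annotation, from which symbols, positions and exon lengths came. The build named and this annotation differ, and the sources used here do not settle which was used for counting. No row lacked a gene.

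Each comparison was fitted across all genes in R 4.3.3 by edgeR 4.0.16 (TMM factors, filterByExpr, glmQLFit, glmQLFTest, two-sided, Benjamini-Hochberg, threshold 0.05): siRNA against control within AsPC-1 and PANC-1, PANC-1 against AsPC-1 controls, and the interaction over all libraries. The SE is the absolute log2 fold change divided by the square root of F. CPM levels used TMM factors over all 11 libraries. SIK1 and SIK1B were not tested where the AsPC-1 libraries enter. The alternatives tried were DESeq2 1.42.0, other scalings (upper quartile, RLE), no filter, a filter of 5 CPM, 1 fit over all groups, a replicate block, leaving out each library, and, chosen after seeing the data, summing SIK1 and SIK1B. Likeness used log2(CPM + 0.5). The fits were tested on simulated data. Libraries of one group differed by more than sampling noise (chi-square per degree of freedom 1.67 to 5.97).

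The members and the 16 gene lists (198 symbols, all matched) were chosen with earlier results of these data known. All members were named, with SIK2, SIK3, the CRTC genes, up to 3 of the largest called changes per list and comparison, and the 5 genes most like SIK1. Other genes (FOSL1 in all comparisons, SIK1B, HOOK2, the other chromosome 21 copies) were named after their values were seen. Further lists were other immediate early genes, decay factors of AU-rich mRNAs, heat shock genes and mesenchymal markers. Figures were drawn with matplotlib 3.10.9 in Python 3.11.15. Some genes of these lists are counted but not reported by name here.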

Additional observations from a re-analysis of the deposited data

Results flagged for a closer look

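The siRNA response of IER3 was called as different between the lines in an interaction test, a call that many alternatives ended. It was lower in PANC-1 by 0.30 on the log2 scale (difference -0.30, SE 0.08, edgeR adjusted p = 0.0299 in the interaction test), with all 3 AsPC-1 siRNA libraries above both controls and overlapping groups in PANC-1. The call was lost in 8 of the 11 fits that left out a library and under upper-quartile scaling (edgeR adjusted p = 0.0597).

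SIK1 is listed because all AsPC-1 siRNA libraries lay above the AsPC-1 controls while its mean in PANC-1 was lower with siRNA. The difference of the fitted changes was -2.25 on the log2 scale. This difference was not tested, since SIK1 was selected on the AsPC-1 libraries, and with SIK1B added it was -1.06.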

How the results depend on the processing

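Counts of called members depended on the setting. Of 5 members called in AsPC-1, 3 were called with DESeq2 and 3 with the replicate block, and 3 to 5 when a library was left out. Of 1 called in PANC-1, 0 were called without a filter, with DESeq2 and with the replicate block, 2 in 1 fit over all groups, and 0 to 0 when a library was left out. For the difference between lines, 1 was called, against 2 without a filter, with the filter of 5 CPM and with DESeq2, 0 with the replicate block, and 0 to 2 when a library was left out. Between controls 8 were called, and 9 with the replicate block and without PANC-1 control 3, where JUND was added.

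Over all genes, the controls had 12370 calls and 9677 to 13665 under the alternatives. AsPC-1 had 4709 calls, and 3164 to 4393 when a library was left out. PANC-1 had 1356, and 538 to 1712 when a library was left out (538, 876 and 863 without siRNA libraries 1, 2 and 3), with 628 under the replicate block. The difference between lines had 727, against 470 under the replicate block and 305 to 1056 when a library was left out, with 305 and 315 without AsPC-1 controls 1 and 2 and 475 without PANC-1 siRNA library 1. Upper-quartile scaling moved the median log2 difference of all genes between controls from 0.06 to 0.14 and ended the call of the IER3 difference (adjusted p = 0.0597 by edgeR).

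The replicate numbers showed no pairing of the libraries: same-numbered control and siRNA libraries had deviations correlated at -0.03 and -0.02 in AsPC-1, and at -0.02, -0.33 and -0.08 in PANC-1. Differently numbered PANC-1 libraries ran from -0.29 to 0.30. In AsPC-1 the deviations of the 2 controls mirror each other, so those values are not independent. With the block, adjusted p was 0.0533 for JUN and 0.0791 for IER2 in AsPC-1, 0.114 for EGR1 in PANC-1, 0.0813 for the IER3 difference, and 0.00341 for JUND between controls.

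Signs reversed only for values near 0 and for SIK1. Leaving out a library gave, for JUND in AsPC-1, -0.032 to 0.074 (below 0 without the second control or the second siRNA library). In PANC-1 it gave -0.083 to 0.037 for IER2 (above 0 without the first control or the second siRNA library), -0.048 to 0.19 for JUND (below 0 without the second control), -0.071 to 0.037 for IER3 (above 0 without the third control) and -0.0075 to 0.27 for FOS (below 0 without the second siRNA library). In the difference between lines it gave -0.054 to 0.15 for JUND (below 0 without AsPC-1 control 1, AsPC-1 siRNA 1, PANC-1 control 2 or PANC-1 siRNA 1) and -0.27 to 0.010 for EGR1 (above 0 without AsPC-1 control 2). Summed with SIK1B, SIK1 between controls was -2.12. The cause was not tested for these changes, other than the summing. Over all alternatives, 118 of 130 values kept direction and side of the threshold in AsPC-1, 124 of 139 in PANC-1, 127 of 130 between controls and 152 of 180 for the difference. Where SIK1 had no test, its value counted as kept if it held its direction and moved by less than its SD between the libraries of a group on the log2 scale. SIK1 in both lines, and FOS in PANC-1, rest on under 100 counts per library except in 2 AsPC-1 siRNA libraries.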

Other observations

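Other immediate early genes moved in both directions. Of 34 tested in AsPC-1, 11 rose and 5 fell, against 16.6% and 16.3% of all genes. NAB2, a corepressor of EGR1 that EGR1 induces, rose 1.43-fold (12.5 ± 0.656 to 18.2 ± 1.68 CPM, edgeR adjusted p = 5.12e-04). BTG1, an antiproliferative gene, rose 1.47-fold and ID2, an inhibitor of helix-loop-helix factors, rose 1.76-fold. Of 34 in PANC-1, 1 rose and 3 fell, against 4.16% and 4.92%. CSRNP1 rose 1.35-fold, and ID2 fell to 67.3% and ID1 to 80.4%. The difference in the ID2 response was -1.40 (edgeR adjusted p = 0.00152). Between the controls, 18 of 34 were higher in PANC-1 and 11 lower, against 40.3% and 36.1% of all genes, with CYR61 and SOCS3 15.2-fold and 14.9-fold higher.

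Of 17 genes for decay of AU-rich mRNAs, 4 rose and 6 fell in AsPC-1, against 16.6% and 16.3% of all genes. In PANC-1, 1 rose and 2 fell, against 4.16% and 4.92%. CNOT6, a deadenylase subunit, fell in both lines, to 77.6% and 68.8% (edgeR adjusted p of 2.66e-06 and 4.87e-04). Of 10 heat shock genes, to be set beside the same shares, 2 rose and 1 fell in AsPC-1 and 1 rose in PANC-1. HSPB1 was at 1.26-fold in each line. Of the mesenchymal markers, VIM rose 1.12-fold in AsPC-1, and none of 3 was called in PANC-1.

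Of 4 other near-identical pairs on chromosome 21, chosen after their values were seen, 2 divided their counts unevenly within a group. CBS took 96.7%, 95.8% and 67.9% of the counts of CBS and CBSL in the 3 PANC-1 controls, on sums of 549, 524 and 521 counts, and 93.4%, 97.1% and 62.6% in the siRNA libraries. U2AF1 took 87.6%, 77.7% and 70.9% of the counts of U2AF1 and U2AF1L5 in the 3 AsPC-1 siRNA libraries, where the sum itself was 380, 247 and 165 counts. SMIM11A took 98.5% to 100% of the counts of SMIM11A and SMIM11B in every library, with 99.2% and 98.5% on the largest sums, 119 and 65 counts in PANC-1 controls. KCNE1 and KCNE1B had at most 1 count together in any library.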
